A study of Sus scrofa with 2 samples.

Results

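The 6 porcine miRNAs described here are ssc-miR-95, ssc-miR-101, ssc-miR-149, ssc-miR-28-5p, ssc-miR-135 and ssc-miR-338. They were chosen by their signals, because each was higher in Bama minipigs than in Landrace pigs, and they are 6 of the 355 miRNAs with a probe on the array. The signals were measured in anterior pituitary RNA of female Bama minipigs (YB), a small Chinese breed, and of female Landrace pigs (YC), a large commercial breed, all 20 days old. RNA of 3 pigs was pooled for each breed and each pool was hybridized to 1 array, so neither the spread between pigs nor a test between the breeds could be had. All differences below therefore compare 2 pools, and fewer cells of a type and less RNA per cell cannot be told apart in them.

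A miRNA is cut from 1 arm of a hairpin precursor and loaded into an Argonaute protein, and its seed, the bases from position 2 to position 8, pairs with messenger RNAs that are then repressed. Many hairpins lie inside a longer gene, the host gene, and can be made from its transcript. In the anterior pituitary, which secretes growth hormone, prolactin, the gonadotropins and other hormones, miRNAs take part in the development and the hormone output of the endocrine cells.

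The mature sequences that the array addressed are shown because the seed sets which messengers each miRNA can pair with. The seed is in capitals.
ssc-miR-95: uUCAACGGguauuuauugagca
ssc-miR-101: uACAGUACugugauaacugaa
ssc-miR-149: uCUGGCUCcgugucuucacuccc
ssc-miR-28-5p: aAGGAGCUcacacucuauugag
ssc-miR-135: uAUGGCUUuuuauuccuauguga
ssc-miR-338: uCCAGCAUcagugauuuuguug

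The 6 seeds were all different. The nearest pair was ssc-miR-149 and ssc-miR-135, which had the same base at 5 of the 7 seed positions. A messenger would carry the reverse complement of the seed, which is CCGUUGA for ssc-miR-95, GUACUGU for ssc-miR-101, GAGCCAG for ssc-miR-149, AGCUCCU for ssc-miR-28-5p, AAGCCAU for ssc-miR-135 and AUGCUGG for ssc-miR-338. Among the other miRNAs on the array, the full seed of ssc-miR-28-5p was shared by 1, and none shared the full seed of the other members.

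In the pig annotation of RefSeq (Sscrofa11.1, used for gene names only), the 6 miRNAs matched 8 miRNA genes, because ssc-miR-101 and ssc-miR-135 each have 2 copies. Of the 8 genes, 7 lay within the span of a longer gene and 6 of those were protein coding. MIR101-1 lay in RCL1, whose product acts in ribosomal RNA processing, and MIR101-2 in JAK1, a kinase of cytokine receptors. MIR149 lay in GPC1, which encodes the cell surface proteoglycan glypican, MIR28 in LPP, which encodes a LIM protein of cell adhesions, and MIR338 in AATK, a kinase gene expressed in neural tissue. MIR135-2 lay in the non-coding gene LOC100514051, and MIR135-1 lay in no annotated gene, with GLYCTK, the glycerate kinase gene, as its nearest coding neighbour. No host gene was shared. The annotation table used here gives neither strand nor exons, and 1 probe per mature sequence cannot tell the 2 copies of ssc-miR-101 or of ssc-miR-135 apart. Messengers of the host genes were not analysed here.

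Signals are on a linear scale with the background subtracted, and a log2 ratio is the log2 of the Bama minipig signal over the Landrace signal. A miRNA is called detectable on an array as in the study's supplementary list, since neither background nor spot values were among the data used. In Landrace pigs the lowest signal called detectable was 129.9, but some miRNAs, ssc-miR-135 among them, were called not detectable there at higher signals, so this value is not a strict limit. Ratios that rest on a signal called not detectable are given as measured and are uncertain. Probes bind with different strength, so a signal, a rank or a sum of signals is read only between the 2 arrays for the same probe or list of probes, and says nothing of the relative abundance of different miRNAs.

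The signal of ssc-miR-95 was 1156 in the Bama minipig pool and 316 in the Landrace pool, which is 3.65-fold or a log2 ratio of 1.87. This was the widest difference of the 6, and ssc-miR-95 was detectable on both arrays. It is a miRNA described mostly in tumours, where it represses SNX1, a sorting nexin of the endosome.

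The signal of ssc-miR-101 was 1603 in the Bama minipig pool and 624 in the Landrace pool, with a log2 ratio of 1.36 (2.57-fold). It was detectable on both arrays. Among its best known targets are EZH2, the histone methyltransferase of the Polycomb repressive complex, and PTGS2, the inducible cyclooxygenase.

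For ssc-miR-149, the signals were 4828 and 2182, in the same order of breeds, with a log2 ratio of 1.15 (2.21-fold). It was also detectable on both arrays. MYD88, an adaptor of Toll-like receptors, is a known target.

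For ssc-miR-135, 3094 was measured in the Bama minipig pool and 1096 in the Landrace pool, which is 2.82-fold or a log2 ratio of 1.498. It was called detectable in Bama minipigs only, although its Landrace signal lay above the lowest detectable one, so its ratio rests on a signal of uncertain standing. The paper lists a smaller log2 ratio for ssc-miR-135, which still passed the paper's fold limit. For the other members the ratios in the paper equal those given here after rounding. Why the values for ssc-miR-135 differ was not tested. The miR-135 family is known to repress APC, a scaffold of the complex that degrades beta-catenin.

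For ssc-miR-338, 169 was measured in the Bama minipig pool and 63.4 in the Landrace pool, and the latter signal was not detectable. The measured log2 ratio was 1.41, while the Bama minipig signal was 1.30-fold the lowest detectable Landrace signal, which is short of 2-fold. It is known as a miRNA of oligodendrocytes, in which it represses inhibitors of their maturation.

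For ssc-miR-28-5p, 98.6 was measured in the Bama minipig pool and 48.5 in the Landrace pool, and again only the former was detectable. Its measured log2 ratio of 1.02 was the smallest of the 6. Its Bama minipig signal lay under the lowest detectable Landrace signal, so the measured ratio is uncertain in size and in direction.

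**Figure D1:**
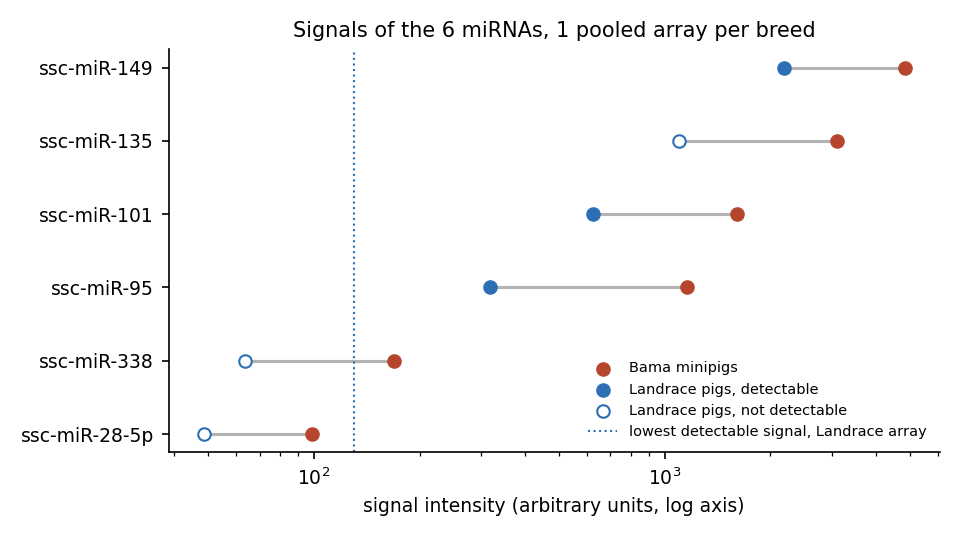
Signal intensity of the 6 miRNAs on a log axis, with 1 point per breed, each from 1 pooled array of 3 pigs, so there are no error bars. Open circles mark the 3 miRNAs not detectable on the Landrace array, and the dotted line marks the lowest detectable signal there, 129.9. The Bama minipig point lies to the right in all 6 rows, by 2.03-fold to 3.65-fold in measured signal.

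Thus 3 of the 6 were detectable on both arrays and 3 in Bama minipigs only. The measured log2 ratios had a median of 1.39 over the 6 and of 1.36 over the 3 detectable on both arrays. Over all 222 detectable miRNAs the median was 0.046, and over the 164 detectable on both arrays it was -0.039.

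By measured signal all 6 lay at 2-fold or more, which follows from how they were chosen. Of the 222 detectable miRNAs, 37 (16.7%) were at least 2-fold higher in Bama minipigs, and the share was 9.76% over those detectable on both arrays and 19.4% over all 355 probes. The 6 are thus part of a larger group, and the size of their ratios does not set them apart within it. In the other direction 7 of the 222 were at least 2-fold lower, and the numbers became 21 higher and 19 lower with the arrays scaled to their 75th percentile and 25 higher and 14 lower after quantile normalization. Around 2-fold, the miRNAs just inside it were Y-67 (a log2 ratio of 1.01), ssc-miR-28-5p (1.02), ssc-let-7e (1.09), ssc-miR-365-3p (1.15) and ssc-miR-149 (1.15). Those just outside were ssc-miR-345-5p (0.99), Y-11 (0.97), Y-84 (0.96), ssc-miR-204 (0.93) and ssc-miR-532-3p (0.92), so the step from ssc-miR-28-5p to the nearest miRNA outside was small.

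The share past 2-fold depended on the signal. With the mean of the 2 signals at 100 or below, 32.5% of 40 detectable miRNAs were at least 2-fold higher in Bama minipigs, and none of the 40 was detectable on both arrays. Of the 6, ssc-miR-28-5p lay in this class. Between 100 and 1000 the share was 18.2% of 77, with ssc-miR-95 and ssc-miR-338 in the class. Between 1000 and 10000 it was 11.8% of 85, with ssc-miR-101, ssc-miR-135 and ssc-miR-149. Above 10000, 0 of the 20 miRNAs reached 2-fold. Without its sign, the log2 ratio had a median of 0.78 in the lowest class and of 0.45, 0.29 and 0.073 in the next ones.

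**Figure D2:**
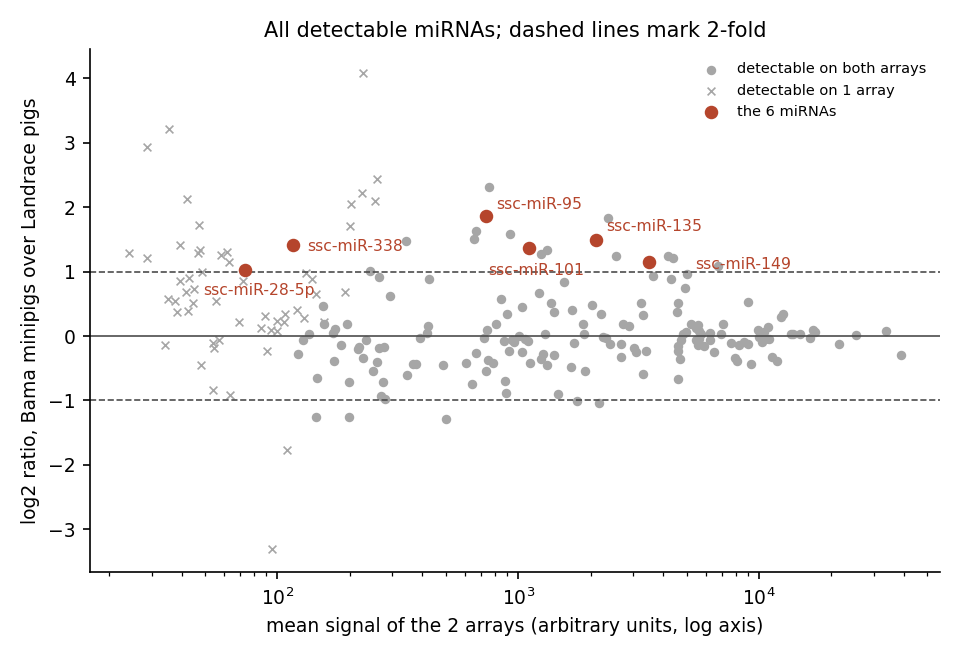
Bama minipigs over Landrace pigs, as a log2 ratio, for the 222 detectable miRNAs against the mean signal of the 2 arrays (log axis). Circles are miRNAs detectable on both arrays and crosses those detectable on 1 array, and the dashed lines mark 2-fold in either direction. The 6 miRNAs (red) lie above the upper line over a wide span of signals, with ssc-miR-28-5p next to the line and among the crosses.

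The rank of a signal on its own array does not change when the array is scaled by a constant. Counted from the brightest of the 355 probes, ssc-miR-95 ranked 99 among the Bama minipig signals and 137 among the Landrace ones, ssc-miR-101 87 and 123, and ssc-miR-135 66 and 98. The ranks of ssc-miR-338 were 167 and 192, those of ssc-miR-149 were 54 and 76, and those of ssc-miR-28-5p were 183 and 203. Each of the 6 thus stood 20 to 38 places higher on the Bama minipig array, which restates how they were chosen and is no further evidence. The Landrace ranks of ssc-miR-135, ssc-miR-338 and ssc-miR-28-5p are those of signals called not detectable, and the lowest gain, 20 places, is that of ssc-miR-28-5p. Over the 222 detectable miRNAs the median gain was -1 place, and 35 of them, the 6 included, gained 20 places or more.

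How far the ratios depended on the scaling differed between the 6. The log2 ratio of ssc-miR-95 ran from 1.52 with the arrays scaled to their 75th percentile to 2.05 after cyclic loess, and that of ssc-miR-135 from 1.15 to 1.498. For ssc-miR-101 it ran from 1.01 to 1.47. These 3 stayed at 2-fold or more under all 6 settings. The log2 ratio of ssc-miR-149 was 0.80 with the 75th percentile and 0.95 with quantile normalization, and that of ssc-miR-338 was 0.95 once 50 was added to each signal, so both were below 2-fold there. For ssc-miR-28-5p it was below 1 in all 5 alternatives, from 0.55 after cyclic loess to 0.93 with the arrays set to a common median. The median of all detectable miRNAs moved by -0.35 with the 75th percentile and by -0.11 with quantile normalization.

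**Figure D3:**
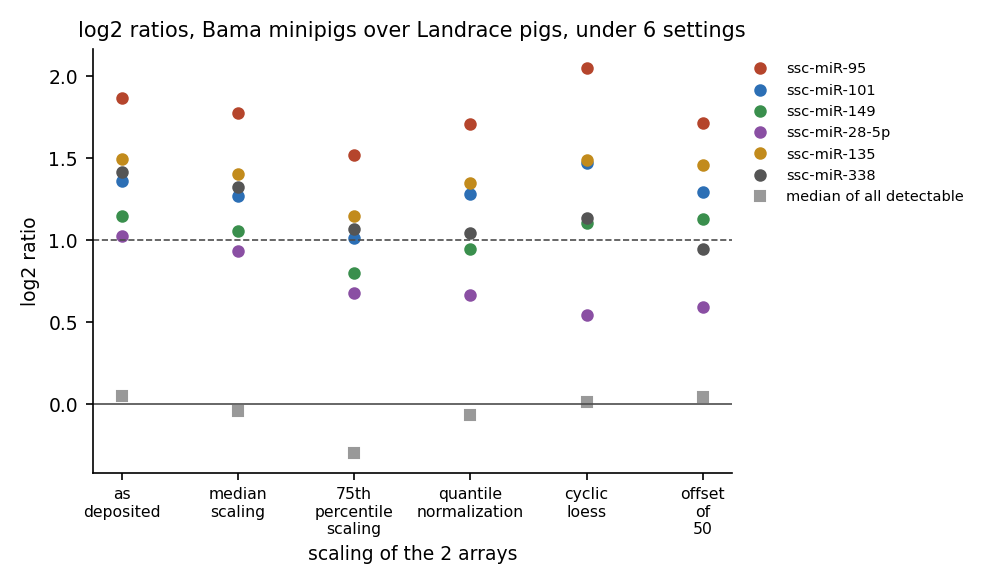
Bama minipigs over Landrace pigs, as a log2 ratio, for each of the 6 miRNAs (coloured points) and the median over all detectable miRNAs (grey squares), with the signals as deposited and under 5 alternatives. The dashed line marks 2-fold. Of the 6 miRNAs, ssc-miR-95 is highest throughout and ssc-miR-28-5p lowest, below the line in every alternative.

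Related miRNAs on the array were those of the same hairpin or family, those sharing bases 2 to 7 with a member, and those sharing a run of 10 or more bases with one. There were 9 of them, related to 3 of the members, ssc-miR-28-5p, ssc-miR-101 and ssc-miR-338. Of the 9, 7 were detectable on both arrays, and the log2 ratios of these 7 were all below 0, from -0.42 to -0.023. For ssc-miR-95, ssc-miR-149 and ssc-miR-135 no related miRNA was on the array, and their longest run shared with any other miRNA was of 8, 9 and 8 bases.

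The hairpin of ssc-miR-28-5p also gives ssc-miR-28-3p from its other arm, and the family holds miR-151, from a hairpin in PTK2, the focal adhesion kinase gene, and miR-708, from one in TENM4, a teneurin gene. Their sequences are shown with the seeds in capitals, because ssc-miR-708-5p has the seed of ssc-miR-28-5p, while ssc-miR-151-5p holds the same letters shifted towards its 3′ end.
ssc-miR-28-3p: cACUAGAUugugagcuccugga
ssc-miR-708-5p: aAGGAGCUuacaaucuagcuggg
ssc-miR-151-5p: uCGAGGAGcucacagucuagu

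The other arm, ssc-miR-28-3p, was detectable on both arrays, with 262 in the Bama minipig pool, 294 in the Landrace pool and a log2 ratio of -0.17. The 2 arms of the hairpin thus differed in log2 ratio by 1.19, a difference that a scaling by a constant does not change, and after cyclic loess their log2 ratios were 0.55 and -0.043. The difference rests on a Landrace signal of ssc-miR-28-5p that was not detectable, so its size and its sign are uncertain.

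The miRNA with the same seed, ssc-miR-708-5p, had 1263 and 1548, a log2 ratio of -0.29. In ssc-miR-151-5p, which shares the 11 bases from position 2 to position 12 of ssc-miR-28-5p, the signals were 7406 and 7946 (a log2 ratio of -0.10), and its other arm, ssc-miR-151-3p, had 1640 and 1760 (-0.10). None of these 4 family members was higher in Bama minipigs in any of the 6 settings. The remaining one, ssc-miR-708-3p, measured higher in Bama minipigs, with 16.5 and 5.21 (a log2 ratio of 1.66), but was detectable on neither array. Outside the family, ssc-miR-339-5p shares 10 bases with ssc-miR-28-5p, and its signals were 713 and 724 (a log2 ratio of -0.023, or 0.15 after cyclic loess).

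For ssc-miR-101, the miRNA sharing bases 2 to 7 was ssc-miR-199b*, which differs from it at the last seed position. Both are shown with the shared first 7 bases in capitals.
ssc-miR-101: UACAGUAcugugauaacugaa
ssc-miR-199b*: UACAGUAgucugcacauugguu

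The log2 ratio of ssc-miR-199b* was -0.42, from 956 in Bama minipigs and 1277 in Landrace pigs, against 1.36 for ssc-miR-101. It was below 0 in all 6 settings. The miRNA ssc-miR-542-3p, which shares the last 11 bases of ssc-miR-101, gave 0.882 and 0.597, neither of them detectable.

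The seed of ssc-miR-338 was on no other probe, but its 3′ part was. The 13 bases from position 10 to position 22 of ssc-miR-338 stand at the same positions in ssc-miR-7, a miRNA known for its abundance in endocrine cells. They are in capitals here.
ssc-miR-338: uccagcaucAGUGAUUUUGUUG
ssc-miR-7: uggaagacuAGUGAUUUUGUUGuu

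The log2 ratio of ssc-miR-7 was -0.29, from 35031 in the Bama minipig pool and 42831 in the Landrace pool, while that of ssc-miR-338 was 1.41. Binding of ssc-miR-7 to the ssc-miR-338 probe was not tested. After quantile normalization the log2 ratio of ssc-miR-7 was 0.0, since it had the highest signal on each array.

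**Figure D4:**
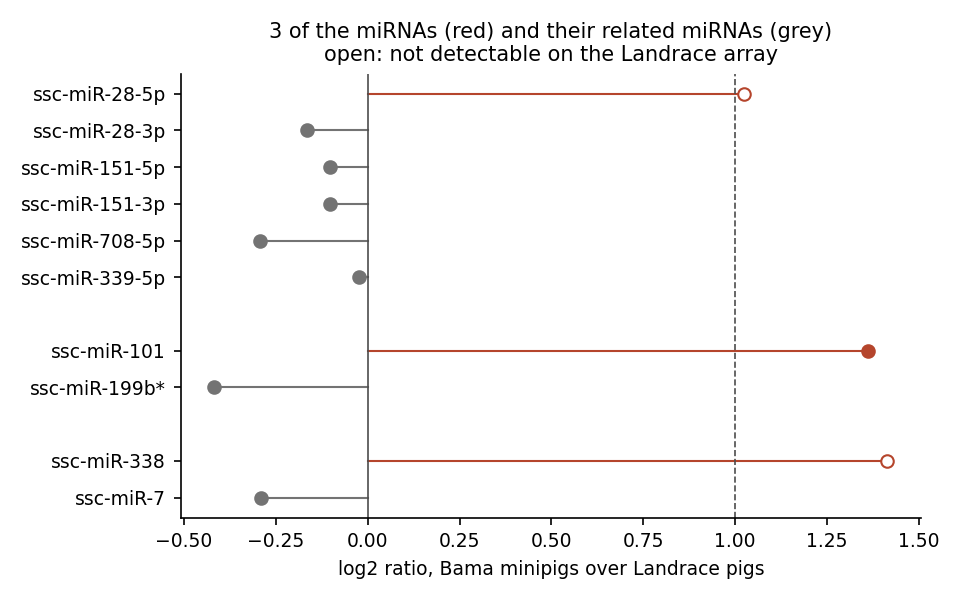
Bama minipigs over Landrace pigs, as a log2 ratio, for ssc-miR-28-5p, ssc-miR-101 and ssc-miR-338 (red) and, below each, the related miRNAs detectable on both arrays (grey). Open circles mark miRNAs not detectable on the Landrace array, and the dashed line marks 2-fold. The 7 related miRNAs lie to the left of 0 and the 3 red ones to the right of 1.

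The only other miRNA gene annotated within 50 kb of the 8 genes was MIRLET7G, near MIR135-1, and it was looked up after the signals were known. The signals of ssc-let-7g were 14980 and 14582, a log2 ratio of 0.039.

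The detectable miRNAs were split into 3 bins by their share of G and C. Of the 6 miRNAs, 5 were in the lowest bin (45.5% or less), which held 82 of the 222. The other, ssc-miR-149, at 60.9%, was in the highest (55.0% or more). The median share was 38.6% in the 6 and 56.5% over the other 31 that were 2-fold or more higher in Bama minipigs. At 52.2%, ssc-miR-135 had the highest share of U among the detectable miRNAs. Purines (A and G) made up 21.7% of ssc-miR-149 and 57.1% of ssc-miR-101, the lowest and the highest of the 6, with a median of 45.5%, against 63.6% over the other 31. For both shares the median over all 222 detectable miRNAs lay between that of the 6 and that of the other 31. It was nearer to the 6 for purines and nearer to the other 31 for G and C. Of the 37 at least 2-fold higher, 15 had a probe added by the authors (prefix Y-), and none of these is among the 6. The median log2 ratio was 0.033 in the lowest bin, -0.0093 in the middle one and 0.25 in the highest, and the shares at least 2-fold higher were 17.1%, 8.33% and 25.0%. These are descriptions of probes on 2 arrays, and no test was made.

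**Figure D5:**
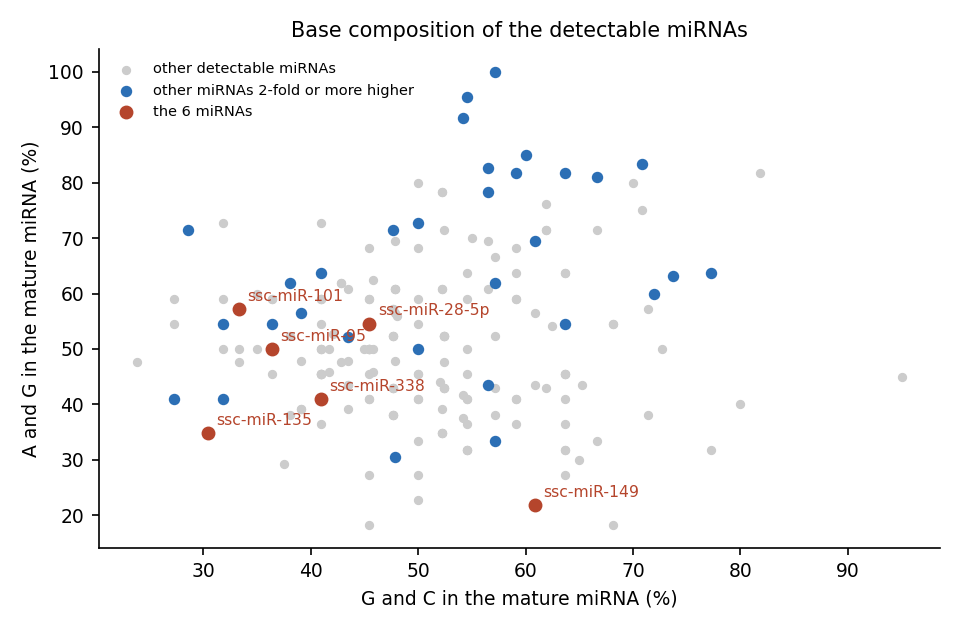
Share of A and G against share of G and C (both in % of the bases) in the mature sequences of the 222 detectable miRNAs. The 6 miRNAs are red, the other 31 at least 2-fold higher in Bama minipigs blue, and the rest grey. The 6 lie at or below 57.1% purines, and 5 of them at or below 45.5% G and C, while the blue points reach the upper right.

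Markers of other cell types were read beside these values. For striated muscle, 3 of 6 marker miRNAs (ssc-miR-1, ssc-miR-133a-3p and ssc-miR-133b) measured at least 2-fold higher in Bama minipigs, none of them detectable in Landrace pigs, and 2 (ssc-miR-206 and ssc-miR-208b) at least 2-fold lower. The signals of the list summed to 1528 in Bama minipigs and 660 in Landrace pigs. Among them ssc-miR-1 had 426 and 25.1, while ssc-miR-208b was detectable on neither array. The brain and posterior lobe list summed to 5650 and 5752, with ssc-miR-128 at 5384 and 5602 and ssc-miR-124a at 66.3 and 27.0, while ssc-miR-9-1, ssc-miR-219 and ssc-miR-218 were detectable on neither array. By measured signal 1 of its 6 markers was at least 2-fold higher and 2 lower. The blood cell list summed to 5497 and 6026 and the connective tissue and vessel list to 15631 and 20129, with 0 of 5 at least 2-fold higher and 1 of 5 lower in each. In the blood cell list ssc-miR-142-3p, ssc-miR-142-5p and ssc-miR-155 were detectable on neither array. For the endocrine cells the sums were 128846 and 133950, and none of the 5 markers reached 2-fold in either direction. The part of muscle or neural tissue in the 6 ratios was not tested.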

How the data were processed

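Anterior pituitary RNA was pooled from 3 pigs of each breed and hybridized to 1 custom miRNA array per pool. For each of the 355 probes 1 intensity per array was deposited. The authors had by then removed background from these intensities, applied LOWESS normalization and taken the mean over repeated spots. How values under the background were kept above 0 is not given in the sources used here. Mature sequences and the calls of detectable miRNAs were read from the study's supplementary list. No scaling was added for the main values. With 1 array per breed there was no test, and the 2-fold limit is a rule of size.

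Alternatives were cyclic loess (3 iterations, limma 3.58.1 in R 4.3.3), quantile normalization, a common 75th percentile, a common median of the miRNAs detectable on both arrays, and an offset of 50. Other counts used a signal of at least 500, or undetected signals at the lowest detectable one. The 4 scalings, but not the offset, were run on a simulated pair of arrays. The simulation had the same noise at every signal, changes larger than those of the 6 and no limit of detection. It therefore says nothing of how reliable ratios near 2-fold or at low signals are. Python 3.11.15, numpy 2.4.6, pandas 2.3.3 and matplotlib 3.10.9 were used. The members and the lists were chosen with earlier results of these data known. The miRNAs named are the 6, their related miRNAs, 5 on each side of 2-fold and the markers. The messenger RNA sequencing was not analysed here, and some host and target genes are not reported here.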

Additional observations from a re-analysis of the deposited data

How the results depend on the processing

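Over the 5 alternatives 22 of 30 log2 ratios of the 6 miRNAs were at 2-fold or more. The miRNAs were chosen on these ratios, and a common median or 75th percentile moves every ratio by 1 constant, so this is no sign of stability. The number at 2-fold or more was 5 with median scaling and with cyclic loess, and 4 with the 75th percentile, quantile normalization, the offset, a signal of at least 500, or undetected signals set to the lowest detectable one. It was 3 with only miRNAs detectable on both arrays. The median log2 ratio of the 6, 1.39, was 1.04 with the 75th percentile, 1.16 after quantile normalization and 1.21 with the offset. The share of detectable miRNAs at least 2-fold higher, 16.7%, was 15.3% with median scaling and 13.1% with cyclic loess. It was 9.46% with the 75th percentile, 11.3% after quantile normalization and 10.4% with the offset. For miRNAs with a signal of at least 500 it was 12.2%, and for those detectable on both arrays 9.76%. The fewer miRNAs counted explain the smaller number with both arrays required. With a signal of at least 500, ssc-miR-338 and ssc-miR-28-5p were likewise left out of the count. Undetected signals set to the lowest detectable one lowered the ratios of the same miRNAs by construction. A common median or 75th percentile lowered every ratio by its constant. The cause of the remaining changes was not tested. No paired analysis was possible because each breed has 1 array. The Landrace signals of ssc-miR-135, ssc-miR-28-5p and ssc-miR-338 were not detectable, which limits their ratios.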
